A study of Mus musculus with 10 samples.

Results

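The PGC-1, ERR and PPAR regulators of energy metabolism were followed in hearts of male C57BL/6 mice lacking HIPK2, a nuclear serine/threonine kinase, and in wild-type hearts. They comprised 10 genes: the coactivators Ppargc1a, Ppargc1b and Pprc1, the orphan receptors Esrra, Esrrb and Esrrg, the lipid-sensing receptors Ppara, Ppard and Pparg, and the factor Nrf1. Every probe of the array that carried one of these gene names and was not a control was taken, which gave 24 of 56605 probes and 10 of 37074 gene names. Of these 24 probes, 19 passed the filter on dim probes, 18 of them were well above background on all 10 arrays, and 5 did not pass. To pass, a probe had to be marked well above background on 4 or 5 of the 5 arrays of a genotype, in knockout, wild type or both.

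Total RNA of cardiac tissue was hybridised to 1-colour Agilent arrays, 1 array per sample, for 5 HIPK2 knockout and 5 wild-type samples. The knockout mice carried a CRISPR-made frameshift deletion of 56 bases in exon 2 of Hipk2 in every cell, and the line was expanded by crossing to wild-type C57BL/6 mice. The age of the mice, the chamber sampled and whether the groups were littermates are not given in the sources used here. The labels number the samples without saying that each came from its own mouse, so a p-value reflects how far these samples vary and may rest on technical spread.

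PGC-1 coactivators bind no DNA themselves and act by docking on transcription factors, above all the estrogen-related receptors, the PPARs and nuclear respiratory factors such as NRF1. In heart muscle this circuit sustains genes of the citric acid cycle, of oxidative phosphorylation and of fatty acid oxidation, the main fuel of the adult heart. PPARs act as partners of the retinoid X receptors, while ERRs bind DNA without a known natural ligand.

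Values are log2 of the processed signal minus log2 of the array's 75th percentile, so 0 is the level of the probe at that percentile. Levels of different probes are not comparable, and each probe was compared only with itself across arrays. The 75th percentile itself was lower in knockout arrays, at 378 ± 75.3 signal units (SD, n = 5) against 499.5 ± 31.9, with an adjusted p of 0.0381 by exact permutation over 12 array measures. Of these measures 5 passed the threshold, and 2 passed without knockout replicate 2 or 3 or wild-type replicate 4, none without wild-type replicate 2, 3 or 5. A single measure at the smallest exact permutation p the arrays allow cannot pass alone over 12 measures. The 10 listed cardiomyocyte markers all passed the filter and averaged 8.42 ± 0.16 in knockout and 8.0 ± 0.23 in wild-type arrays, far above the 75th percentile on every array. The 3 Hipk2 probes were well above background on all 10 arrays and differed between genotypes by -0.0096 to 0.11, with overlapping values. No run of 12 bases of the deleted stretch occurs in any of them, so they do not check the deletion, and the knockout rests on the labels.

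Among the 19 measured probes, 1 passed the threshold of 0.05 on the limma p-value adjusted over all 30693 probes tested, a probe of Ppargc1a that fell in knockout hearts. Over all probes tested, 4.44% passed in either direction and 2.76% passed as lower. At an unadjusted p under 0.05 there were 6 of the 19 probes, 5 lower and 1 higher, where 26.1% of all probes reached that level. Knockout values lay below every wild-type value for 4 of the 19 probes, from Ppargc1a, Pprc1 and Nrf1, against 4.41% of all probes. For none of the 19 did they lie above every wild-type value, where 4.09% of all probes did. The fold change was below 0 for 17 of the 19 probes, with a median of -0.17 on the log2 scale, where the median of all probes was 0.0079. These probes are not separate cases, since several genes have more than 1. Among them, Esrrg probe A_55_P2714464 was well above background on 2 of 5 knockout and 5 of 5 wild-type arrays, so it passed the filter through wild type alone. With 1 probe per gene, 54.1% of all genes had a fold change above 0.

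**Figure D1:**
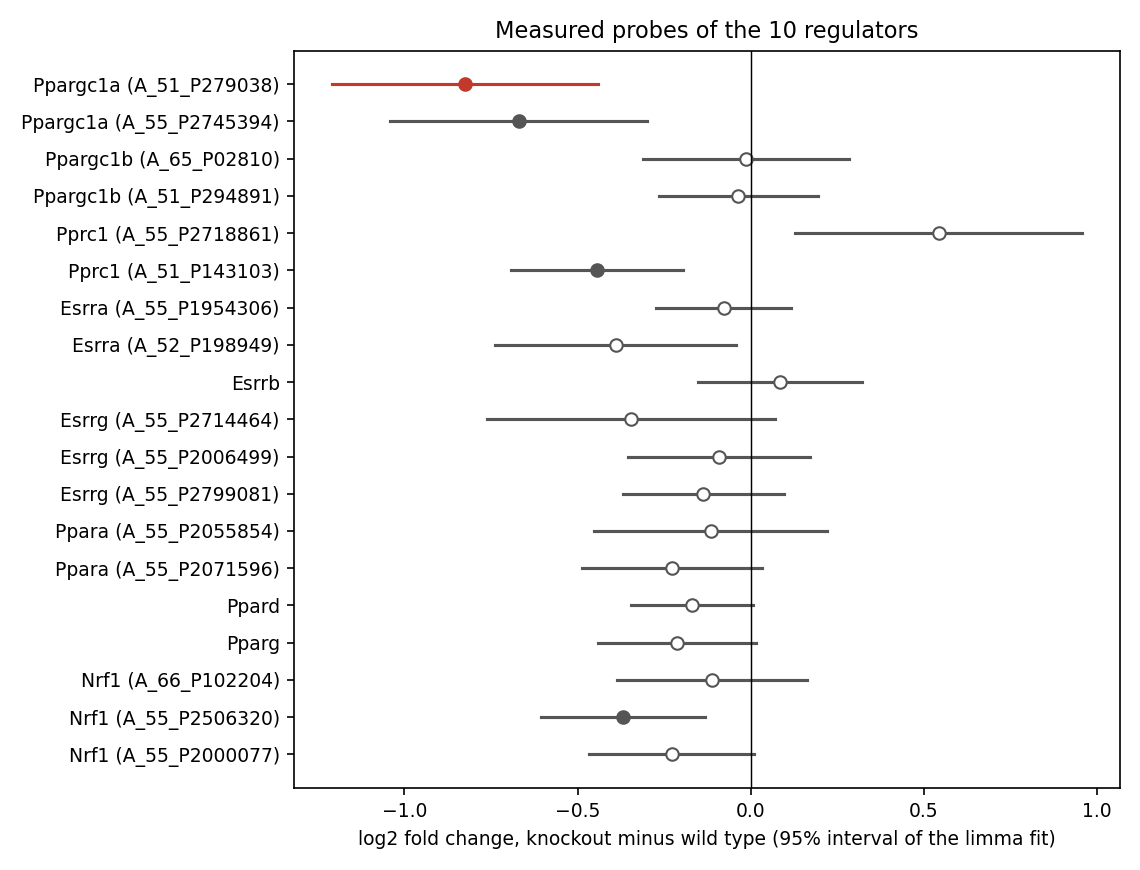
Log2 fold change of each measured probe, knockout minus wild type, with the 95% interval of the limma fit over 5 knockout and 5 wild-type arrays; the red point passed the adjusted threshold and filled points mark probes whose genotypes did not overlap. The Ppargc1a probe A_51_P279038 is at -0.82, its other probe at -0.67, and 17 of the 19 points lie below 0, with several genes giving more than a single point.

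Ppargc1a encodes PGC-1α, the inducible coactivator of mitochondrial biogenesis and oxidative metabolism. Its probe A_51_P279038 (mm9 chr5:51848928-51848987, minus strand) read 3.88, 3.65, 3.26, 3.69 and 3.22 in knockout replicates 1 to 5. In wild-type replicates 1 to 5 the probe read 4.18, 4.15, 4.55, 4.12 and 4.83. Every knockout array was below every wild-type array, with knockout replicates 3 and 5 the lowest and wild-type replicate 5 the highest. The means were 3.54 ± 0.29 (SD, n = 5) and 4.37 ± 0.31, a log2 change of -0.82 ± 0.17 (SE; 95% interval -1.21 to -0.44; limma adjusted p = 0.0308). Knockout signal was thus 56.5% of wild-type signal, 1.77-fold lower. In whole tissue, fewer cells that express a gene and less RNA per cell cannot be told apart.

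The other Ppargc1a probe, A_55_P2745394 (mm9 chr5:51849419-51849478, minus strand), ends exactly on the stop codon of an open reading frame and lies nearer the 5′ end of the transcript. It read 2.49, 2.63, 2.38, 2.40 and 2.14 in the knockout replicates and 3.15, 2.77, 3.09, 2.73 and 3.64 in the wild-type replicates. Again the genotypes did not overlap, with knockout replicate 5 the lowest and wild-type replicate 5 the highest of the 10. The log2 change was -0.67 ± 0.17 (95% interval -1.04 to -0.30), and its limma adjusted p of 0.0505 missed the threshold. Both probes gave changes of like size: the difference between them was -0.15 (exact permutation p = 0.222, adjusted p = 0.407 over 11 pairs of probes of the same gene).

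The call on Ppargc1a rested on a narrow margin, and its direction did not change under any of the 23 alternative settings tried, where the change at A_51_P279038 ran from -1.01 to -0.62. Leaving out knockout replicate 2, 4 or 5 or wild-type replicate 2, 3, 4 or 5 raised its adjusted p to between 0.0505 and 0.0634, with changes of -0.89 to -0.71, while leaving out knockout replicate 1 or 3 or wild-type replicate 1 kept the call. Wild-type replicates 1 and 2 were on another slide than the other 8 arrays. Within the slide of those 8 arrays the change was -0.96 (adjusted p = 0.0561), and with slide as a block it was -0.96 (adjusted p = 0.0354). On that slide the wild-type arrays and knockout replicate 1 were in row 1 and the other knockout arrays in row 2. Knockout replicate 1, at 3.88, was below the 3 wild-type arrays of its row, which read 4.55, 4.12 and 4.83. With slide and row both as terms the change was -0.62. This estimate rests on knockout replicate 1 alone against the 3 wild-type arrays of its row, because no other row of either slide held both genotypes.

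**Figure D2:**
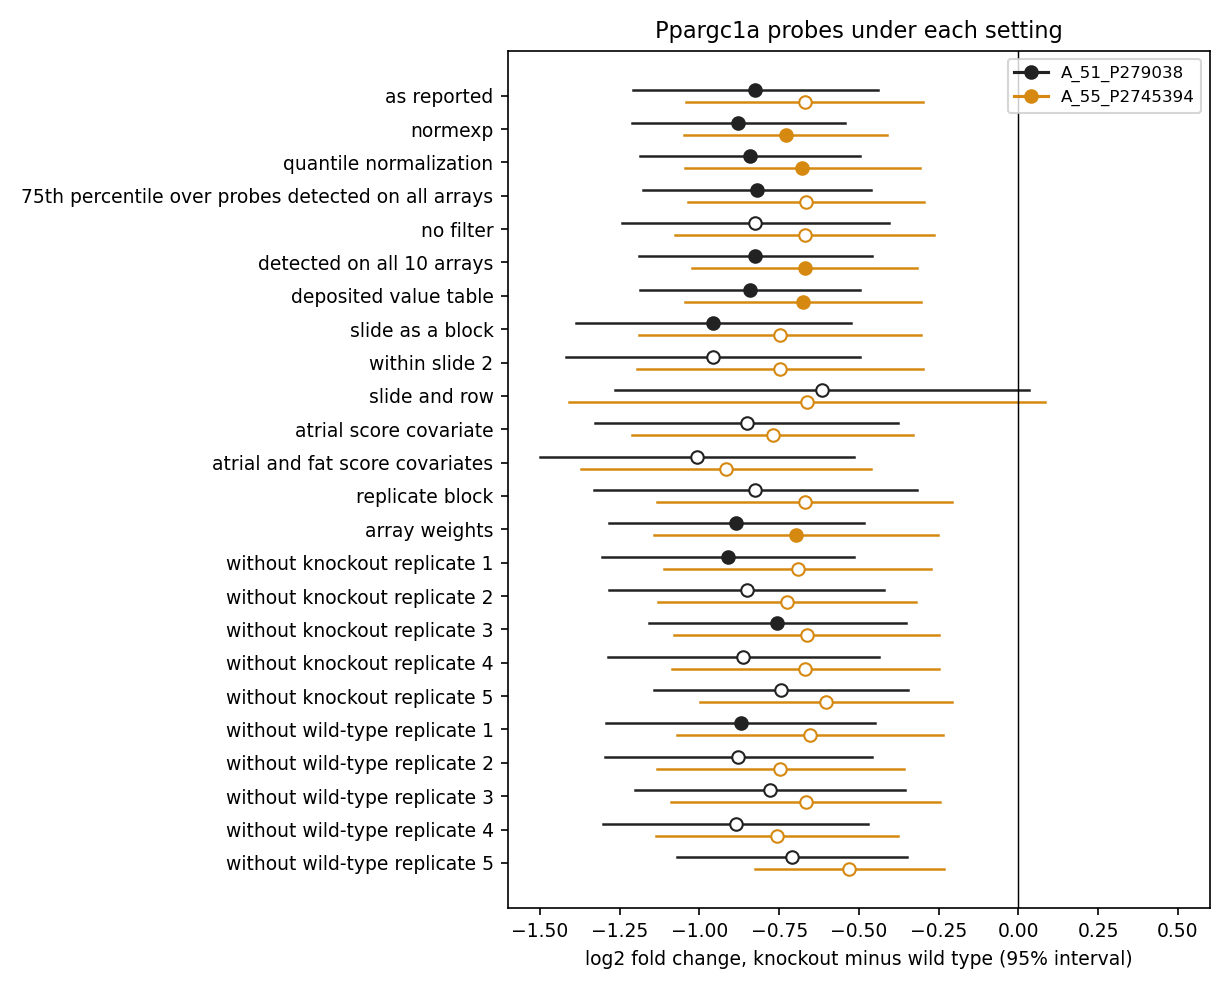
Log2 fold change of both Ppargc1a probes, knockout minus wild type, with 95% intervals under each processing setting; filled points have a limma adjusted p under 0.05. All points lie below 0, from -1.01 to -0.62 for A_51_P279038 and from -0.92 to -0.53 for A_55_P2745394. Only the intervals with slide and row as terms cross 0, a fit whose genotype difference rests on knockout replicate 1 alone.

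Markers of other tissue were read beside Ppargc1a, which brown fat also expresses strongly. Of 5 brown fat markers 3 were measured, and Ucp1 and Elovl3 did not pass the filter. The mean of those measured ran from 0.56 to 0.93 in knockout and from 0.78 to 1.46 in wild-type arrays (adjusted p = 0.0635, exact permutation). Atrial markers averaged 1.44 ± 0.99 in knockout and 3.12 ± 1.93 in wild-type arrays (difference -1.67, adjusted p = 0.143 by exact permutation). Wild-type replicate 1 stood at -0.18, while the other wild-type arrays, at 2.98 to 4.61, were all above the knockout arrays, at 0.10 to 2.68. Without wild-type replicate 1 the atrial difference was -2.50 (adjusted p = 0.0476 by exact permutation) and the Ppargc1a change was -0.87 and kept its call.

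With the score of the atrial genes Myl7, Myl4 and Sln as a covariate the Ppargc1a change was -0.85 (95% interval -1.33 to -0.38; limma adjusted p = 0.103). With a fat score from Cfd, Car3, Cidec and Retn added it was -1.01 (95% interval -1.50 to -0.52; adjusted p = 0.163). Endothelial markers were 0.31 lower in knockout arrays, at 2.06 to 2.30 against 2.45 to 2.53, and macrophage markers 0.36 lower, at 1.43 to 1.97 against 1.94 to 2.21 (both adjusted p = 0.0381, exact permutation). Without knockout replicate 2 or 3 or wild-type replicate 2, 3, 4 or 5 the macrophage adjusted p was 0.0635 to 0.0952. The endothelial one was 0.0635 to 0.0762 without wild-type replicate 2, 3 or 5. In these 3 cases the endothelial values still did not overlap, at an exact permutation p of 0.00794, the smallest the arrays allow. There the p of the other measures decided whether the endothelial one passed. The 3 measured of 7 lymphocyte markers averaged 0.44 higher (adjusted p = 0.0381, exact permutation). With single arrays left out, that difference passed only without wild-type replicate 1 or 4. Cardiomyocyte markers averaged 0.41 higher (adjusted p = 0.0381, exact permutation), but under quantile normalization the median change of the 10 markers went from 0.50 to 0.043, with 6 of 10 above 0. That mean passed without knockout replicate 5 or wild-type replicate 1, and without each of the other 8 arrays it was 0.35 to 0.47 higher at adjusted p of 0.0635 to 0.0952. The part of endothelial, macrophage, lymphocyte and cardiomyocyte content in the Ppargc1a change was not tested.

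Pprc1 encodes the PGC-1-related coactivator, a serum-responsive family member known from proliferating cells. Its probe A_51_P143103 (mm9 chr19:46147083-46147142, plus strand) also ends on a stop codon. It read 0.30, 0.037, 0.26, 0.13 and 0.25 in the knockout replicates and 0.73, 0.58, 0.32, 0.91 and 0.66 in the wild-type replicates. The genotypes did not overlap, though wild-type replicate 3 was close to knockout replicate 1. The log2 change was -0.44 ± 0.11 (95% interval -0.69 to -0.20), with a limma adjusted p of 0.0514 over probes. With 1 probe per gene, adjusted over 20607 genes, the same values gave an adjusted p of 0.0482, and leaving out any array other than wild-type replicate 3 put this above the threshold, at 0.0614 to 0.10, with changes of -0.47 to -0.38. Within slide 2 the change was -0.43 (adjusted p = 0.131 over genes). The choice of unit thus decided on which side of the threshold Pprc1 fell.

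The coding ends of both genes are shown because both probes cover the last codons of related genes, each with its stop codon in capitals, 5′ to 3′ as the array files give them.
Ppargc1a, A_55_P2745394: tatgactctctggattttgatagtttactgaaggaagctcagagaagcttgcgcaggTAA
Pprc1, A_51_P143103: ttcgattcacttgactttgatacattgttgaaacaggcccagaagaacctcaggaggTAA
Read base by base without gaps, 39 of the 60 positions are identical.

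Pprc1 has 3 further probes, of which only A_55_P2718861 (mm9 chr19:46119470-46119529), upstream of the others, passed the filter. This dim probe read -3.41, -3.16, -2.64, -3.12 and -3.62 in the knockout replicates and -3.70, -4.20, -3.68, -3.66 and -3.43 in the wild-type replicates. It was higher in knockout arrays, with overlap, by 0.54 ± 0.19 (95% interval 0.13 to 0.96; limma adjusted p = 0.109). Before scaling, its signal was 35.9 to 51.6 units in knockout and 28.4 to 44.6 units in wild-type arrays, and the lowest signal that counted as well above background, on the scaled log2 axis, was -4.91 to -3.01 in knockout and -5.08 to -4.61 in wild-type arrays. The changes of both Pprc1 probes differed by 0.99 (exact permutation p = 0.00794, the smallest that 5 against 5 arrays allow; adjusted p = 0.0873 over 11 pairs). Under normexp background correction both probes passed over probes, in opposite directions, at 0.46 for A_55_P2718861 (limma adjusted p = 0.0363) and -0.43 for A_51_P143103 (adjusted p = 0.0217). Of the 23 alternatives the first passed in that 1 and the other in 6, at adjusted p of 0.0156 to 0.0476, which were normexp, quantile normalization, the value table, probes detected on all 10 arrays, array weights and leaving out wild-type replicate 3. None of the 11 pairs of probes of the same gene passed after adjustment, and 1 pair alone at the smallest p could not pass, whatever its values. The remaining Pprc1 probes, A_55_P2718866 and A_55_P2731081, were not well above background on any array.

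Ppargc1b encodes PGC-1β, the constitutive relative of PGC-1α that shares many of its mitochondrial targets. Its brighter probe, A_51_P294891 (mm9 chr18:61458252-61458311), read 3.46, 3.80, 3.34, 3.32 and 3.50 in the knockout replicates and 3.53, 3.47, 3.41, 3.65 and 3.53 in the wild-type replicates. The genotypes overlapped throughout, and the change was -0.035 ± 0.10 (95% interval -0.26 to 0.19; limma adjusted p = 0.856). Its probe A_65_P02810 (mm9 chr18:61451467-61451526) gave -0.012 ± 0.13 (95% interval -0.31 to 0.29; adjusted p = 0.964). Neither interval reaches the change of -0.82 seen at Ppargc1a.

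Differences between family members were tested directly, as the per-array difference between the brightest probe of each of 2 genes, for 9 pairs. Ppargc1a was lowered more than Ppargc1b by 0.79 (exact permutation p = 0.00794, adjusted p = 0.0476), with the Ppargc1a-minus-Ppargc1b value at -0.28 to 0.42 in knockout and 0.47 to 1.30 in wild-type arrays. Pprc1 and Ppargc1b differed by 0.41 in their change (p = 0.0159 by exact permutation, adjusted p = 0.0476). Ppargc1a and Pprc1 did not differ past the threshold, with -0.38 between their changes (p = 0.151 by exact permutation, adjusted p = 0.271). The Ppargc1a and Ppargc1b pair passed without knockout replicate 1 or 3, and did not pass without any of the other 8 arrays left out in turn, at adjusted p of 0.0714 to 0.107 and differences of -0.88 to -0.68. The Ppargc1b and Pprc1 pair passed only without knockout replicate 3, with 0.29 to 0.46 and adjusted p of 0.0714 to 0.107 without each of the other 9 arrays. Among the 8 arrays of slide 2 the Ppargc1a and Ppargc1b difference was -0.91 and the Ppargc1b and Pprc1 difference 0.39, both at an adjusted p of 0.257, where the smallest raw p the arrays allow is 0.0179. At that p, 1 pair alone cannot pass over 9 pairs. With 1 array left out, 1 pair alone at the smallest exact permutation p of 0.00794 has an adjusted p of 0.0714.

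**Figure D3:**
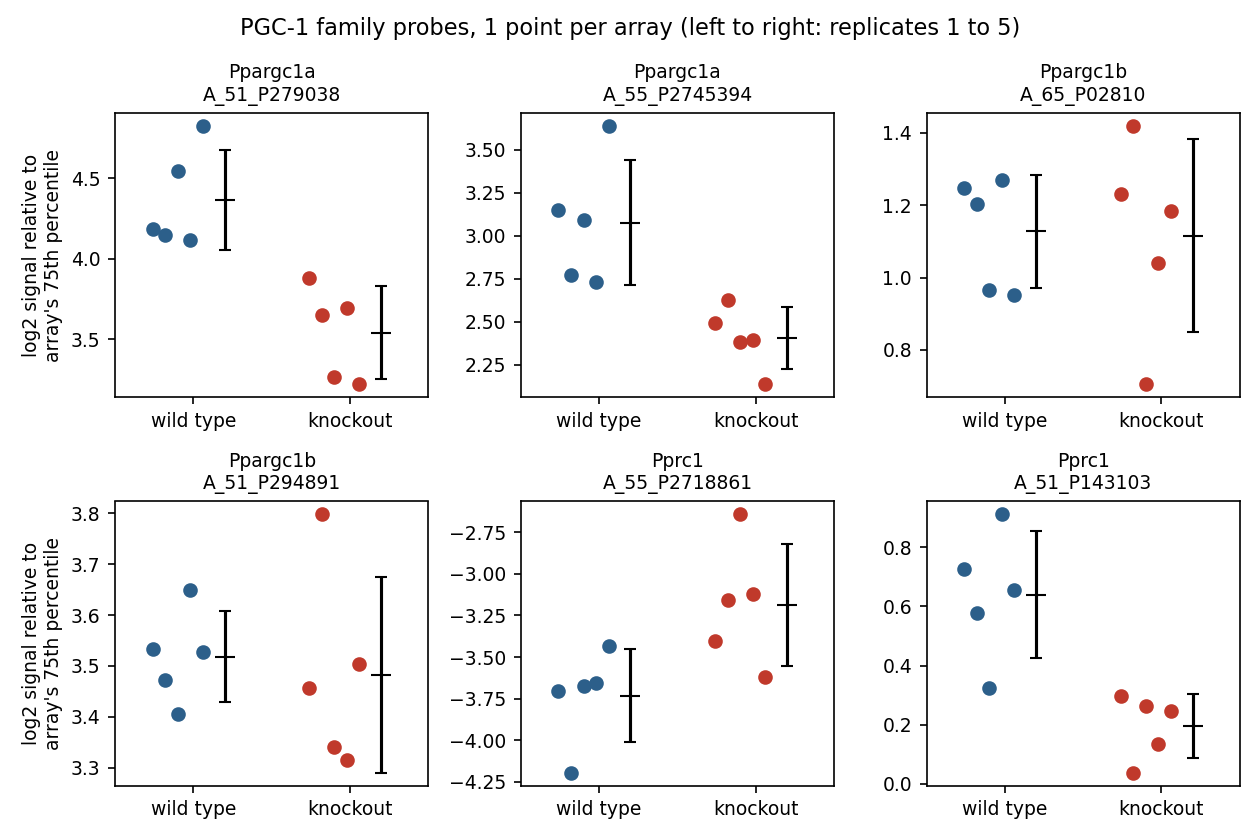
Log2 signal relative to the array's 75th percentile for the 6 measured PGC-1 family probes, 1 point per array with replicates 1 to 5 from left to right, and the mean ± SD of 5 arrays beside each genotype; each panel has its own axis. Knockout points lie below all wild-type points for both Ppargc1a probes and for Pprc1 A_51_P143103, and overlap with them in the other 3 panels.

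The 250 bases upstream of the RefSeq transcript starts of Ppargc1a and Pprc1 (GRCm38.p6) are shown because these were the coactivators whose probes separated the genotypes. Ppargc1a lies on the minus strand, chr5:51567726-51567975, and Pprc1 on the plus strand, chr19:46056289-46056538, both printed 5′ to 3′ towards the start. In capitals is every match, on either strand, to any of 12 motifs.
Ppargc1a: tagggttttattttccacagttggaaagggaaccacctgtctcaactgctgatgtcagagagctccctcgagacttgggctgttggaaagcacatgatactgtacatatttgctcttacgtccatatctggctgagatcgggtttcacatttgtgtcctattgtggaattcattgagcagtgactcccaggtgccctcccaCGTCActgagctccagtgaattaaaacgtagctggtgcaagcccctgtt
Pprc1: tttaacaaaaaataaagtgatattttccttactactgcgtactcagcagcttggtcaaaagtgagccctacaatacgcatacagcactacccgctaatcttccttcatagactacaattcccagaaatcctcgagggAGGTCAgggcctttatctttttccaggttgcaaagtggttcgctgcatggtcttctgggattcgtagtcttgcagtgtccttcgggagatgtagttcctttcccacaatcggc
The Ppargc1a window held 1 match, the cAMP response element half-site TGACG on the opposite strand, 49 to 45 bases before the start, and 17.8% of all 32851 windows of this length hold that motif. The Pprc1 window held 1 match, the nuclear receptor half-site AGGTCA, 113 to 108 bases before the start, which 14.0% of all windows hold. Neither window held the full response element TGACGTCA, the ERR site TCAAGGTCA or its looser form TNAAGGTCA, or the PPAR direct repeat with a spacing of 1 base, the last 3 of which contain AGGTCA. Also without a match in both were the NRF1 palindrome and its form with a free central base, the E-box CACGTG, the MEF2 site, the AP-1 site TGANTCA and the EGR site GCGTGGGCG. The table held 16 windows of 9 of the members, and Ppargc1b was the member with no entry. A match is a run of letters and no evidence of binding.

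The estrogen-related receptors gave no call. Esrra, the ERR that PGC-1α induces and works with most closely, read 5.22 to 5.58 in knockout and 5.38 to 5.57 in wild-type arrays at its bright probe A_55_P1954306 (mm9 chr19:6985503-6985562). Its change was -0.078 ± 0.089 (95% interval -0.27 to 0.12; limma adjusted p = 0.605). A dimmer Esrra probe, A_52_P198949 (mm9 chr19:6991170-6991229), read -1.40, -0.66, -1.01, -1.21 and -0.92 in the knockout replicates and -0.46, -0.68, -0.50, -1.08 and -0.55 in the wild-type replicates. There wild-type replicate 4 and knockout replicate 2 crossed over to the range of the other genotype, and the change was -0.39 ± 0.16 (adjusted p = 0.152). Both probes were well above background on all arrays, and their changes did not differ past the threshold (0.31, exact permutation p = 0.183, adjusted p = 0.407).

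Esrrb, best known from pluripotent cells and the placenta, read 2.83 to 3.35 in knockout and 2.85 to 3.06 in wild-type arrays at A_55_P1954302 (mm9 chr12:87862509-87862568). Its change of 0.084 ± 0.11 (95% interval -0.15 to 0.32; limma adjusted p = 0.650) was, beside the dim Pprc1 probe, the only one above 0. Its probe A_52_P628212 was not well above background on any array.

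Esrrg, the ERR that drives oxidative genes in the perinatal heart, had 3 measured probes. A_55_P2799081 (mm9 chr1:190038683-190038742) read 1.27 to 1.68 in knockout and 1.41 to 1.68 in wild-type arrays, a change of -0.14 ± 0.11 (limma adjusted p = 0.434). A_55_P2006499 (mm9 chr1:190038192-190038251), some bases upstream of it, gave -0.090 ± 0.12 (adjusted p = 0.660). The third, A_55_P2714464 (mm9 chr1:189617558-189617617), was well above background on 2 of 5 knockout and 5 of 5 wild-type arrays, so it passed the filter through the wild-type group, and its change was -0.34 ± 0.19 (adjusted p = 0.268).

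Within the ERR family the changes of Esrrb and Esrrg differed by 0.22 (exact permutation p = 0.0159, adjusted p = 0.0476), although neither gene changed past the threshold on its own. Under normexp background correction the pair had an adjusted p of 0.0893, and under quantile normalization one of 0.0714. It passed without knockout replicate 1 or 3, and without each of the other 8 arrays the adjusted p was 0.0714 to 0.143 with differences of 0.18 to 0.24. Esrra and Esrrb differed by -0.16 (p = 0.0397 by exact permutation, adjusted p = 0.0893).

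The PPARs showed no call, and all 4 of their measured probes had changes below 0. Ppara, the main driver of fatty acid oxidation genes in heart, read 3.38 to 3.87 in knockout and 3.42 to 4.06 in wild-type arrays at A_55_P2055854 (mm9 chr15:85632110-85632169). The change was -0.11 ± 0.15 (95% interval -0.45 to 0.22; limma adjusted p = 0.663). Its other probe, A_55_P2071596 (mm9 chr15:85637193-85637252), gave -0.23 ± 0.12 (95% interval -0.49 to 0.033; adjusted p = 0.245), with overlap.

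Ppard, the broadly expressed PPAR, had a single probe, A_66_P124715 (mm9 chr17:28438298-28438357). It read 1.68, 1.78, 1.94, 1.90 and 1.89 in the knockout replicates and 2.07, 1.93, 2.06, 1.97 and 2.02 in the wild-type replicates. Only knockout replicate 3, at 1.94, reached above the lowest wild-type array, at 1.93, and the change was -0.17 ± 0.080 (95% interval -0.35 to 0.0071; limma adjusted p = 0.206).

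Pparg, the adipocyte PPAR, read 1.86 to 2.20 in knockout and 1.99 to 2.46 in wild-type arrays at A_51_P106799 (mm9 chr6:115440213-115440272), a change of -0.21 ± 0.10 (95% interval -0.44 to 0.016; limma adjusted p = 0.219). Its second probe on the array, A_55_P2745190, was not well above background on any array. Of 9 fat markers 7 were measured, without Adipoq and Plin1, and their mean was -1.97 to -0.69 in knockout and -1.55 to 0.93 in wild-type arrays (adjusted p = 0.0833, exact permutation). With the atrial and fat scores as covariates the Pparg change was -0.31 (95% interval -0.63 to 0.00057; limma adjusted p = 0.358). None of the 3 pairs of PPARs differed in change, with differences of 0.043 to 0.098 and adjusted p of 0.688 to 0.722 by exact permutation.

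Nrf1 encodes nuclear respiratory factor 1, which drives nuclear genes for the respiratory chain and for mitochondrial DNA upkeep. Its probe A_55_P2506320 (mm9 chr6:30094644-30094703) read -1.36, -1.38, -1.52, -1.50 and -1.40 in the knockout replicates and -0.80, -0.87, -1.23, -1.16 and -1.26 in the wild-type replicates. The genotypes did not overlap, and wild-type replicates 1 and 2, the arrays of the other slide, were the highest. The change was -0.37 ± 0.11 (95% interval -0.61 to -0.13) with a limma adjusted p of 0.0725, and this probe passed under none of the 23 alternative settings. Probes A_55_P2000077 (mm9 chr6:30103035-30103094) and A_66_P102204 (mm9 chr6:30067078-30067137) gave -0.23 ± 0.11 (adjusted p = 0.206) and -0.11 ± 0.12 (adjusted p = 0.597), with overlap. The last Nrf1 probe, A_55_P2481764, was not well above background on any array.

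Target genes of the axis were read from 5 lists of known partners and targets, with 1 probe per gene over 20607 genes. Over all genes 1.97% rose and 2.97% fell past the threshold, 14.8% were higher at an unadjusted p under 0.05, 54.1% had a fold change above 0, and the median was 0.026. Of the 39 PGC-1 and ERR target genes of energy metabolism none passed the limma threshold in either direction, while at an unadjusted p under 0.05 there were 24 higher and 1 lower. Their fold changes were above 0 for 37 of 39 genes, with a median of 0.26, but under quantile normalization for 21 of 39, with a median of 0.012. The direction of this list therefore hung on the normalization. The deposited value table also gave 21 of 39, with a median of 0.014. Its list values lie so close to the quantile-normalized ones that it is no separate check. By limma, 1 of these 39 genes passed as lower and none as higher under quantile normalization. With normexp background correction 4 passed as higher and 1 as lower.

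By the rule for named genes, Got2, the mitochondrial aspartate aminotransferase, was 0.29 ± 0.082 higher (limma adjusted p = 0.0623). It read 6.63 to 6.92 in knockout and 6.38 to 6.55 in wild-type arrays, without overlap. Cox6a2, the muscle form of a cytochrome c oxidase subunit, differed by 0.49 ± 0.15 (adjusted p = 0.0791), and by -0.013 under quantile normalization. Vegfa, an angiogenic factor that PGC-1α induces in muscle, was 0.36 lower, at 3.68 to 4.16 in knockout and 4.09 to 4.41 in wild-type arrays (log2 change -0.36 ± 0.10, adjusted p = 0.0664).

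Cardiomyocyte markers moved with the target genes. Of the 10 markers 8 had fold changes above 0, with a median of 0.50, and under quantile normalization 6 of 10 with a median of 0.043. By limma none of the 10 passed the threshold, and 7 were higher at an unadjusted p under 0.05. Their part in the level of the target lists was not tested.

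Among PPAR target genes of lipid use 36 of 39 were measured, 1 rose, none fell, and 28 had fold changes above 0 (median 0.12; under quantile normalization 19 of 36, median 0.0050). The gene that rose was Acadm, the medium-chain acyl-CoA dehydrogenase. It read 7.86, 7.78, 7.69, 7.96 and 7.59 in the knockout replicates and 7.40, 7.17, 7.53, 7.35 and 7.44 in the wild-type replicates. Its log2 change was 0.39 ± 0.098 (limma adjusted p = 0.0468), 1.31-fold, and under quantile normalization 0.11 (adjusted p = 0.332). Leaving out any array other than knockout replicate 5 put it above the threshold, at adjusted p of 0.0504 to 0.0999 and changes of 0.34 to 0.43, and within slide 2 its change was 0.33 (adjusted p = 0.138). Ech1, of unsaturated fatty acid oxidation, differed by 0.40 ± 0.11 (adjusted p = 0.0541) without overlap, and by 0.017 under quantile normalization. Acadvl, the very-long-chain dehydrogenase, differed by 0.34 ± 0.10 (adjusted p = 0.0768), and by 0.0069 under quantile normalization.

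Of 25 NRF1 target genes of mitochondrial upkeep 24 were measured and none passed the limma threshold in either direction, with 3 higher and 1 lower at an unadjusted p under 0.05. Fold changes were above 0 for 17 of 24 (median 0.10), and under quantile normalization for 10 of 24 (median -0.0088). By limma, 2 of the 24 passed as lower and none as higher under quantile normalization, and 1 passed in each direction under normexp. Cox6c, a cytochrome c oxidase subunit, differed by 0.51 ± 0.16 (adjusted p = 0.0863), and its wild-type replicates 1 and 2, of the other slide, were the lowest at 6.95 and 7.07 where the other 3 read 7.59 to 7.69. Cox4i1 differed by 0.38 ± 0.13 (adjusted p = 0.10) and Uqcrh by 0.27 ± 0.11 (adjusted p = 0.157), and under quantile normalization both had the other sign, at -0.088 and -0.20.

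**Figure D4:**
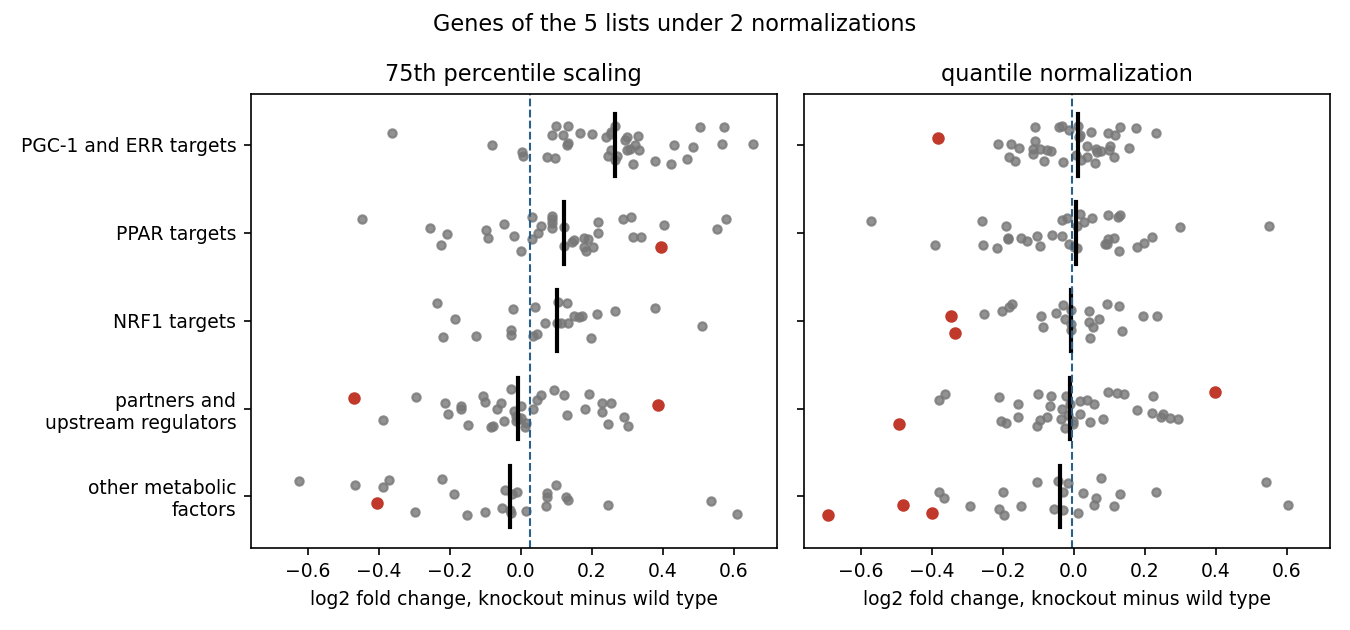
Log2 fold changes, knockout minus wild type, of the measured genes of 5 lists, scaled by each array's 75th percentile on the left and quantile normalized on the right; black bars are list medians, the dashed line is the median of all genes, and red points have a limma adjusted p under 0.05. The median of the PGC-1 and ERR targets is 0.26 on the left and 0.012 on the right.

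Partners and upstream regulators of the axis had 39 of 40 genes measured, of which 1 rose and 1 fell (median -0.0077, with 19 of 39 above 0). Prkab2, a regulatory subunit of the energy sensor AMPK, which acts on PGC-1α, rose by 0.39 ± 0.079 (limma adjusted p = 0.0271), 1.31-fold. It read 1.94, 2.07, 1.94, 1.96 and 2.10 in the knockout replicates and 1.66, 1.44, 1.71, 1.65 and 1.63 in the wild-type replicates, without overlap. Lpin1, a phosphatidate phosphatase that also acts as a coactivator with PGC-1α and PPARα, fell by 0.47 on the log2 scale (SE 0.094, limma adjusted p = 0.0246), 1.39-fold. Its values were 3.41, 3.48, 3.75, 3.61 and 3.33 in the knockout replicates and 4.00, 3.88, 3.97, 4.08 and 4.00 in the wild-type replicates, again without overlap.

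Under quantile normalization Prkab2 and Lpin1 changed by 0.40 and -0.49 and passed. Without knockout replicate 2 or wild-type replicate 2, 4 or 5 the adjusted p of Prkab2 was 0.0576 to 0.0645, with changes of 0.34 to 0.39. Without knockout replicate 1 or 2 or wild-type replicate 4 or 5 that of Lpin1 was 0.0549 to 0.0627, with changes of -0.47 to -0.44. Within slide 2 the changes were 0.34 (adjusted p = 0.0736) for Prkab2 and -0.50 (adjusted p = 0.0596) for Lpin1. Mef2d, a muscle transcription factor that PGC-1α coactivates, differed by 0.29 ± 0.085 (adjusted p = 0.0702), without overlap.

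Other nuclear receptors and factors of heart metabolism had 26 of 27 genes measured, of which none rose and 1 fell (median -0.029, with 10 of 26 above 0). The gene that fell was Rarg, a retinoic acid receptor, at 2.01, 2.40, 2.15, 2.17 and 2.29 in the knockout replicates and 2.52, 2.67, 2.63, 2.48 and 2.74 in the wild-type replicates. Its log2 change was -0.40 ± 0.094 (limma adjusted p = 0.0390), 1.32-fold lower. Leaving out any array other than knockout replicate 2 or 5 put it above the threshold, at adjusted p of 0.0530 to 0.0872 and changes of -0.44 to -0.36, and within slide 2 its change was -0.41 (adjusted p = 0.0974). Myc, at -3.53 to -2.86 in knockout and -2.96 to -2.19 in wild-type arrays, differed by -0.62 ± 0.16 (adjusted p = 0.0539). Its probe is dim: knockout replicate 3, at -3.53, lay below the lowest signal counted as well above background on that array, -3.01. Over the 22 alternative settings that fitted Myc its change ran from -0.79 to -0.11. The mineralocorticoid receptor Nr3c2 differed by 0.61 ± 0.16 (adjusted p = 0.0560), with wild-type replicate 2, at 1.17, inside the knockout range of 1.07 to 1.46.

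For each member, the genes whose log2 values followed its brightest probe most closely over the 10 arrays were found among 12325 named genes well above background on all arrays. These correlations describe the arrays, which share scaling and tissue make-up. For Ppargc1a, Pprc1 and Ppard, r of the deviations from the genotype means stands beside it. Ppargc1a was followed most closely by Lpgat1 (r = 0.964, deviations 0.895), Slc31a1 (0.931, deviations 0.795) and St8sia6 (0.926, deviations 0.756). Lpgat1 was itself lower in knockout hearts, with a log2 change of -0.30 (limma adjusted p = 0.0451). Nearest to Pprc1 were Ms4a6b (r = 0.951, deviations 0.904), Btaf1 (0.950, deviations 0.835) and Ddx31 (0.949, deviations 0.857). Ppargc1b had its nearest genes at lower r, namely Arglu1 (0.884), Trio (0.866) and Cdc42ep4 (0.860).

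The same search gave Nudt4 (r = 0.950), Dnajb5 (0.934) and Sdcbp2 (0.929) for Esrra. For Esrrb it gave Opa1 (0.962), a mitochondrial fusion gene of the PGC-1 and ERR target list, Auh (0.960) and Fem1a (0.943). For Esrrg it gave Exoc6 (0.957), Bnip3 (0.943) and Lta4h (0.942), and for Ppara Mapkapk2 (0.942), Paip1 (0.938) and Rmnd1 (0.934). Ppard was followed by Nrarp (0.960, deviations 0.912), Plk2 (0.912, deviations 0.809) and Rinl (0.909, deviations 0.799), of which Plk2 (log2 change -0.71, limma adjusted p = 0.0241) and Rinl (-0.54, adjusted p = 0.0308) fell in knockout hearts. For Pparg the search gave Adgrg1 (0.909), Gfod2 (0.892) and Cd14 (0.885), and for Nrf1 Mysm1 (0.969), Cdk11b (0.964) and Il6st (0.955).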

How the data were processed

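Cardiac RNA of 10 samples was measured on 1-colour Agilent arrays. The deposited scanner files give linear intensity per spot. Agilent Feature Extraction 10.7.1.1 is named in the submitters' processing notes, and background was subtracted from the processed intensity array by array, per the file headers. The authors also deposited a value table on a log2 scale, used as an alternative. Each of its columns matched its own array best, with r of 0.918 to 0.996 against 0.510 or less for other arrays, after each probe's mean was removed. The median over all its values is 4.74, its direction and array order follow the scanner values, and its background treatment stays unknown.

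Groups came from the sample titles. Log2 of the processed signal minus that of the array's 75th percentile, over 59305 spots that are not controls, was fitted with limma 3.58.1 (R 4.3.3; lmFit, eBayes) on all 30693 probes that passed the filter, with Benjamini-Hochberg adjustment and a threshold of 0.05. Outlier spots were left out and no spot was saturated. Exact permutation, two-sided and over 252 arrangements, compared values given once per array. For lists, a gene was its brightest probe, named through RefSeq accessions (32994 probes matched, 23611 kept the array's name). Coordinates of probes come from the array files (mm9), and exon annotation of mm9 was not used here. The fit was tested on simulated data. The number of arrays limits the precision.

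The members, the lists and the tests were chosen with earlier results of these data known. Named genes are every member, up to 6 per list past the threshold or the smallest p up to 3, and the 3 genes most like each member. Replicate numbers did not pair the samples. Alternatives were normexp (offset 50), quantile normalization, another percentile, filters, the value table, slide and row terms, marker scores, array weights, a replicate block and leaving out each array.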

Additional observations from a re-analysis of the deposited data

Results flagged for a closer look

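In 1 of 38 groups of 5 arrays (19 probes, 2 genotypes) a single array stood apart from its group: the Nrf1 probe A_55_P2000077 read -0.58 in knockout replicate 3, where the other 4 knockout arrays read -0.24 to -0.13. Chance alone marks about 1 in 20 such groups. Without that array the log2 change of this probe was -0.15 (limma adjusted p = 0.314), against -0.23 with it.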

How the results depend on the processing

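The direction was kept in all 23 alternatives by both Ppargc1a probes, both measured Pprc1 probes, the probes of Ppara, Ppard and Pparg, Esrra A_52_P198949 and Nrf1 A_55_P2506320 and A_55_P2000077. The 1 member probe called became 4 under normexp, 3 under quantile normalization, with the deposited value table, with probes detected on all 10 arrays and with array weights, and 2 with 1 probe per gene. It became 0 without a filter, within slide 2, with the atrial score, with the atrial and fat scores and with the replicate block, and 0 to 1 with single arrays left out. Over all 30693 probes, 1364 calls became 4517 under normexp, 3695 with array weights, 1692 under quantile normalization and 1683 with the value table. There were 1543 of 23316 with probes detected on all arrays and 220 of 56605 without a filter. Calls fell to 522 within slide 2, 239 with the replicate block, 78 with the atrial score and 1 with both scores. They were 302 to 1224 with single arrays left out. The number of list genes called, 4 as reported, became 18 under normexp and with array weights and 9 with probes detected on all 10 arrays. It became 8 under quantile normalization, with the value table and when every probe counted. Within slide 2, 1 list gene was called, which was higher in knockout arrays and was none of Acadm, Prkab2, Lpin1 and Rarg. None was called without a filter, with either marker score fit or with the replicate block, and 0 to 4 were with arrays left out. Over all genes, 1017 calls became 3111 under normexp, 2606 with array weights and 1310 under quantile normalization. They became 458 within slide 2, 173 without a filter, 164 with the replicate block, 57 with the atrial score and 8 with both scores. The number of family pairs that passed, 3 as reported, became 0 within slide 2 and 0 to 4 with arrays left out. In either case, and with all 10 arrays, 1 pair alone at the smallest p the arrays allow cannot pass. The 5 array measures became 0 to 8. The cause of these shifts was not tested.

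Samples with the same replicate number shared only the number, with correlations of their deviations of -0.096 to 0.060; the replicate block gave the Ppargc1a probe A_51_P279038 an adjusted p of 0.0996 and lowered all probes called from 1364 to 239.

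Signs turned only for values with no call. In the fit with slide and row the genotype difference rests on knockout replicate 1 alone. Ppargc1b A_65_P02810 was 0.053 with slide as a block and within slide 2, 0.17 with slide and row, 0.12 with array weights and -0.088 to 0.090 with arrays left out, and A_51_P294891 was 0.041 with array weights and -0.11 to 0.0066 with arrays left out. With slide and row Esrra A_55_P1954306 was 0.018, Esrrg A_55_P2006499 0.17 and Esrrg A_55_P2799081 0.14. Esrrg A_55_P2006499 was 0.0036 with slide as a block and within slide 2, Esrrb A_55_P1954302 -0.024 with both marker scores, and under normexp Esrrg A_55_P2714464 was 0.16 and Nrf1 A_66_P102204 0.11. Under quantile normalization and with the value table Cox4i1 was -0.088 in both, Cox6a2 -0.013 and -0.036, and Uqcrh -0.20 and -0.21. Probes near background, such as Pprc1 A_55_P2718861, carry little signal to compare.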
